A study of Homo sapiens with 6 samples.

Results

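The genes described here set, remove or bind methyl groups on histone lysines, and were taken by name from a list. Writers are methyltransferases, most with a catalytic SET domain, that place methyl groups on lysines of histones H3 and H4. Erasers are demethylases of the amine oxidase or Jumonji families, and readers bind the methylated lysine, here through a chromodomain. In general, methylation of H3K4, H3K36 and H3K79 is found at active genes, whereas H3K9 and H3K27 methylation mark heterochromatin and Polycomb-silenced genes. Of the 49 genes listed, 48 were present in the deposited table of 15598 genes, comprising 27 writers, 15 erasers and 6 chromodomain readers, and EHMT2 was not analysed here. All 48 passed the filter on low counts, as did 11831 genes in all.

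RNA sequencing compared 3 libraries of MHCC97H cells in which a hairpin RNA targets HNRNPC (shHNRNPC) with 3 libraries of the same line with a control hairpin (shcontrol). MHCC97H is a hepatocellular carcinoma line of high metastatic capacity, and the HNRNPC product, hnRNP C, attaches to uridine-rich stretches of nascent RNA and influences splice site choice. The table names the libraries SI_3, SI_3_2 and SI_3_3 (shHNRNPC) and NC_3, NC_3_2 and NC_3_3 (shcontrol), and values per library follow that order. The labels describe 1 cell line and do not tell apart several hairpins against HNRNPC. They do not say whether the libraries of a group came from separate cultures, so the p-values measure the spread between these libraries, which may be technical.

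Total counts lay between 16692497 and 17889820 in the shHNRNPC libraries and between 15563077 and 18328475 in the shcontrol libraries. HNRNPC had 61.4, 66.4 and 58.9 CPM in the shHNRNPC libraries, against 847, 854 and 856 CPM in the shcontrol libraries (log2 fold change -3.77, SE 0.030, adjusted p = 5.04e-55). CPM are read counts per megaread (counts relative to library size), scaled with TMM factors, and fold changes are shHNRNPC over shcontrol from edgeR's quasi-likelihood test. Of 15 liver cell and liver tumour markers 4 passed the filter. KRT8 averaged 1158 ± 8.20 CPM in shHNRNPC and 1006 ± 7.06 CPM in shcontrol cells (SD, n = 3 each), while ALB, AFP, APOA1, HNF4A and KRT19 stayed under 0.4 CPM on average in both groups. Among 10 fibroblast, 10 leukocyte and 9 endothelial markers, 3, 3 and 2 passed the filter, and PECAM1, CDH5, CD3E, DCN and LUM averaged under 0.3 CPM in both groups. The fibroblast genes COL1A1 (15.8 ± 0.791 CPM in shHNRNPC and 15.6 ± 0.686 CPM in shcontrol cells) and PDGFRB (4.12 ± 0.138 CPM in shHNRNPC and 4.25 ± 0.936 CPM in shcontrol cells) were present, and did not pass the test. Of those that passed, the macrophage marker CD68 (64.8 ± 2.12 CPM in shHNRNPC and 43.2 ± 3.64 CPM in shcontrol cells) and the endothelial gene EGFL7 (66.4 ± 2.15 CPM in shHNRNPC and 53.3 ± 1.41 CPM in shcontrol cells) were higher in shHNRNPC and ACTA2 (337 ± 2.58 CPM in shHNRNPC and 417 ± 4.41 CPM in shcontrol cells) was lower, and their part in the results was not tested. In bulk RNA, fewer cells that express a gene and less of its RNA per cell cannot be told apart.

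The histone methylation genes were more often lower than higher in the knocked-down cells. At an adjusted p under 0.05, 27 of the 48 were lower in shHNRNPC and 9 were higher, while 31.3% of all tested genes were lower and 29.8% were higher. Writers had 15 lower and 6 higher of 27, erasers 7 lower and 2 higher of 15, and readers 5 lower and 1 higher of 6. The median log2 fold change was -0.26 over the writers, -0.16 over the erasers and -0.43 over the readers, against -0.004 over all tested genes. A fall of at least 1.4-fold was called for 13 of the 48 genes (12.8% of all tested genes) and a rise of that size for 0 of them (6.71% of all tested genes). Every shHNRNPC library lay below every shcontrol library for 26 genes (33.0% of all tested genes) and above it for 7 (30.9% of all tested genes). When the test asked for a change beyond 1.2-fold, 19 were lower and 1 was higher, where 15.7% and 9.29% of all tested genes were. In the authors' deposited table, 26 of the 48 genes were lower and 7 higher at an adjusted p under 0.05, against 20.3% and 19.4% of its genes. A further fit, called composition-adjusted here, used offsets for the GC content and size of each transcript. Such offsets can also take up effects of the knockdown that go with GC content or size. In this fit 22 of the 48 genes were lower and 6 higher (30.7% and 25.3% of all tested genes). The medians were -0.11 for the writers, -0.08 for the erasers and -0.16 for the readers, against -0.02 for all tested genes.

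**Figure D1:**
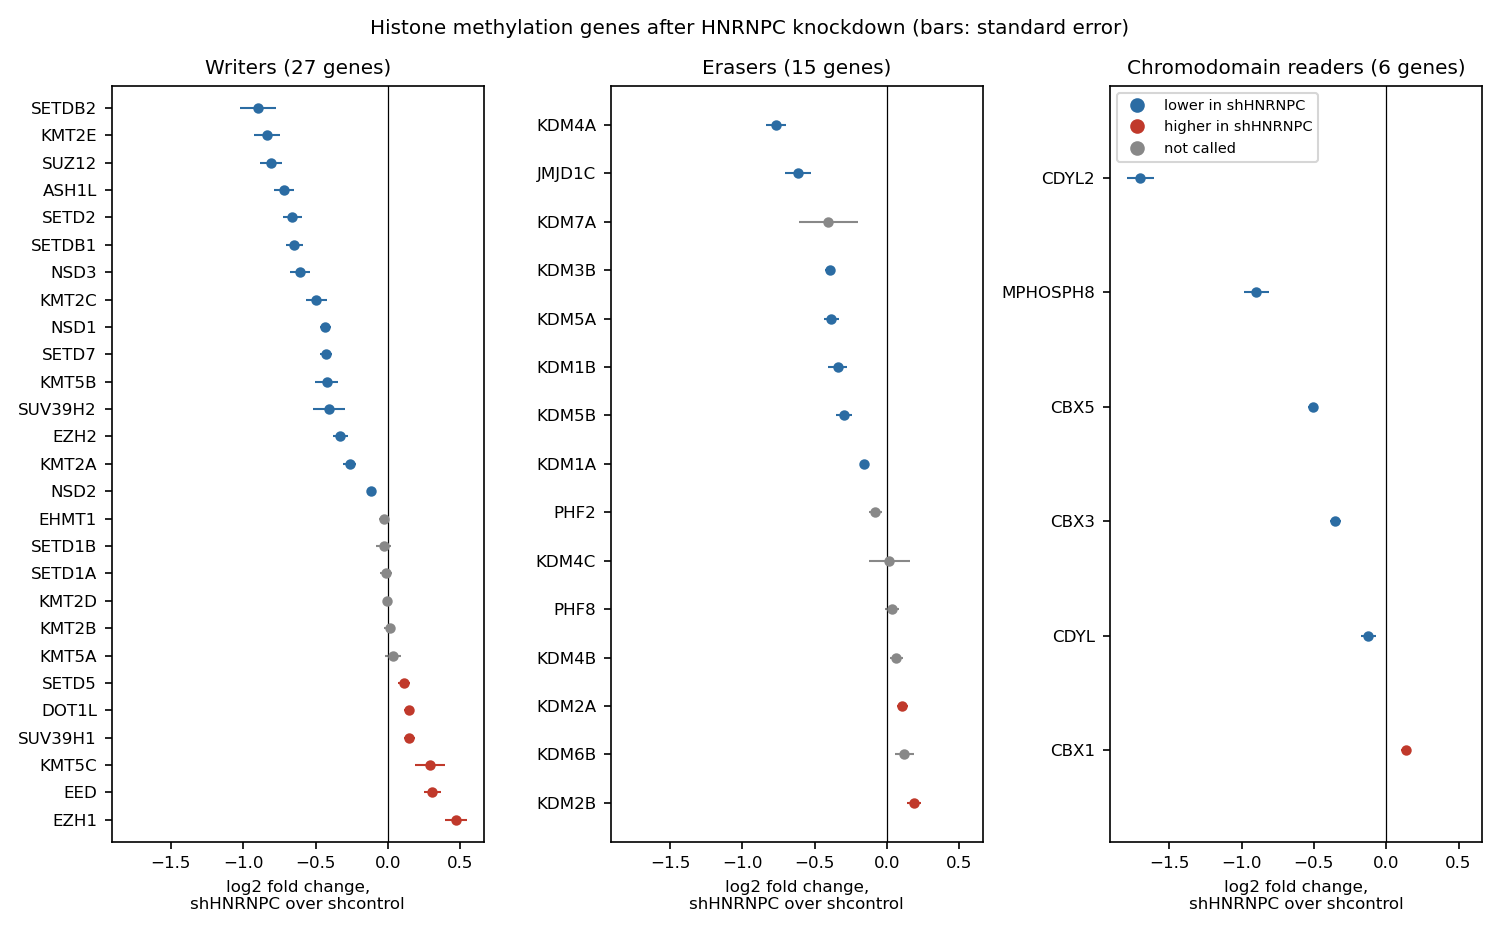
Log2 fold change of shHNRNPC over shcontrol (horizontal axis) for each writer, eraser and chromodomain reader (rows), with bars for the standard error and colours for the call at an adjusted p under 0.05. In all 3 panels the falls reach further from 0 than the rises, from CDYL2 at -1.70 to EZH1 at 0.47.

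The reader CDYL2 had the largest change of the 48. CDYL2 is a chromodomain Y-like protein, of a family that binds methylated H3K9 and H3K27, and the deposited table places it on chromosome 16, 80603916 to 80804263, on the minus strand. It had 6.57, 6.90 and 7.92 CPM in the shHNRNPC libraries, against 23.6, 23.0 and 23.0 CPM in the shcontrol libraries. The groups were far apart, and the log2 fold change was -1.70 (SE 0.094, adjusted p = 2.45e-20), a 3.25-fold fall that stayed at -1.51 when composition-adjusted. Its paralog CDYL, a corepressor that associates with PRC2, had 46.0, 48.2 and 50.6 CPM in the shHNRNPC libraries, against 53.7, 54.3 and 50.1 CPM in the shcontrol libraries. These groups overlapped, and the change was small (log2 fold change -0.12, SE 0.052, adjusted p = 0.0387). The CDYL call was lost on leaving out SI_3, SI_3_2, NC_3 or NC_3_2 in turn (log2 fold change -0.09 to -0.12).

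MPHOSPH8, the chromodomain subunit of the HUSH silencing complex that binds H3K9 methylation, fell 1.86-fold. It had 13.02, 15.1 and 12.5 CPM in the shHNRNPC libraries, against 26.4, 23.2 and 25.98 CPM in the shcontrol libraries (log2 fold change -0.90, SE 0.084, adjusted p = 8.76e-13). The 3 HP1 proteins, which bind methylated H3K9 in heterochromatin, changed in both directions. CBX5, which encodes HP1 alpha, had 110, 110 and 115 CPM in the shHNRNPC libraries, against 162, 157 and 156 CPM in the shcontrol libraries, a 1.42-fold fall (adjusted p = 1.40e-17). CBX3, which encodes HP1 gamma, had 80.4, 78.4 and 80.2 CPM in the shHNRNPC libraries, against 101, 105 and 99.2 CPM in the shcontrol libraries, a 1.28-fold fall (adjusted p = 1.38e-10). Composition-adjusted, the log2 fold change was -0.17 for CBX5, against -0.50 unadjusted, and -0.15 for CBX3, against -0.35. CBX1, which encodes HP1 beta, had 151, 144 and 144 CPM in the shHNRNPC libraries, against 134, 132 and 133 CPM in the shcontrol libraries. It was the reader that rose, by 1.10-fold (log2 fold change 0.14, SE 0.033, adjusted p = 3.02e-04), and the call was lost in the composition-adjusted fit (0.05 on the log2 scale, adjusted p = 0.216). GENCODE 29 names 9 pseudogenes after CBX3, 5 after CBX1 and 1 each after CBX5, CDYL, SUZ12, EZH2 and PHF2, so counts of these genes may be shared with their copies and are uncertain.

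**Figure D2:**
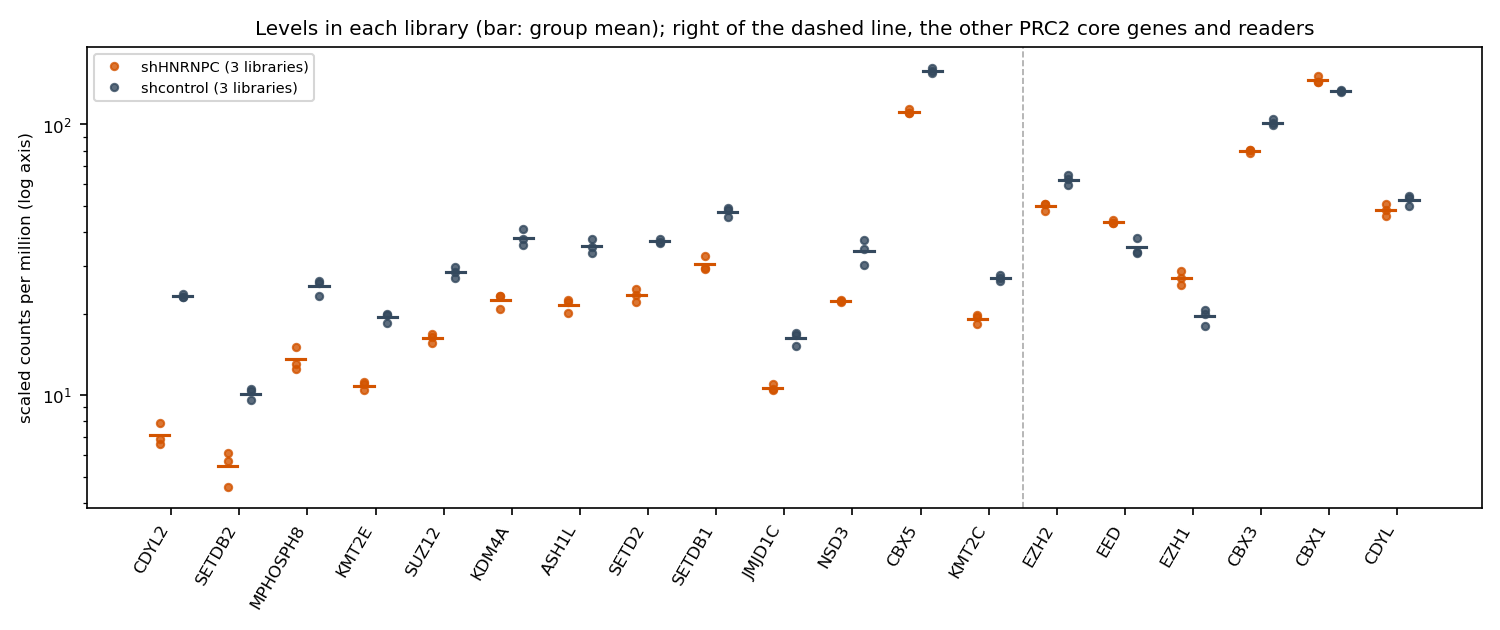
CPM on a log axis in each library (points; 3 shHNRNPC libraries left of 3 shcontrol libraries, bars at the group mean) for the 13 genes that fell at least 1.4-fold, and for the remaining PRC2 core genes and readers. The points of the 13 genes do not overlap between groups, and EZH1, EED and CBX1 are higher in shHNRNPC.

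The core of PRC2, the Polycomb complex that methylates H3K27, changed in both directions. Its catalytic subunits are the paralogs EZH1 and EZH2. EZH1 had 27, 28.7 and 25.6 CPM in the shHNRNPC libraries, against 17.98, 19.99 and 20.7 CPM in the shcontrol libraries, the largest rise of the 48 genes (log2 fold change 0.47, SE 0.075, adjusted p = 5.12e-07). EZH2 had 50.9, 47.8 and 51.0 CPM in the shHNRNPC libraries, against 62.8, 59.97 and 65.02 CPM in the shcontrol libraries (log2 fold change -0.33, SE 0.049, adjusted p = 1.46e-07). The catalytic paralogs moved apart, with no overlap of the groups for either. SUZ12, the scaffold subunit, had 16.8, 16.4 and 15.6 CPM in the shHNRNPC libraries, against 29.9, 27.01 and 28.4 CPM in the shcontrol libraries, a 1.75-fold fall (adjusted p = 6.83e-13). EED, the subunit that binds trimethylated H3K27, had 43.2, 43.2 and 44.4 CPM in the shHNRNPC libraries, against 33.8, 33.6 and 38.1 CPM in the shcontrol libraries, a 1.24-fold rise (adjusted p = 1.25e-05). All 4 calls and directions held in the composition-adjusted fit. Log2 fold changes there were 0.43 for EZH1, -0.32 for EZH2, 0.26 for EED and -0.46 for SUZ12, against -0.81 unadjusted for SUZ12. In edgeR's test for a change beyond 1.2-fold, EZH2 and EED lost their calls (adjusted p = 0.104 and 0.248). EZH1 and SUZ12 kept theirs.

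The promoters of these 4 genes are shown because the subunits of 1 complex moved in opposite directions. Each window runs from 250 bases before to 50 bases after the transcription start (RefSeq, GRCh38.p14) and is printed along the gene's strand. The windows lie at chr17:42744991-42745290 on the minus strand for EZH1, chr11:86244503-86244802 on the plus strand for EED, chr7:148884242-148884541 on the minus strand for EZH2 and chr17:31936757-31937056 on the plus strand for SUZ12. Capitals mark matches to the GC box GGGCGG and the CCAAT box CCAAT on either strand, and neighbouring matches can share bases.
EZH1: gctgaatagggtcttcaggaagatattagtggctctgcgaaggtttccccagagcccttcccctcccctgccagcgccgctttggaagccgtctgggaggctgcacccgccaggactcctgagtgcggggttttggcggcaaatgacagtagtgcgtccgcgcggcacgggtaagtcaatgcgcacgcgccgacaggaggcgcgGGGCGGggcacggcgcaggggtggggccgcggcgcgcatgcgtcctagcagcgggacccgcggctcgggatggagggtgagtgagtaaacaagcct
EED: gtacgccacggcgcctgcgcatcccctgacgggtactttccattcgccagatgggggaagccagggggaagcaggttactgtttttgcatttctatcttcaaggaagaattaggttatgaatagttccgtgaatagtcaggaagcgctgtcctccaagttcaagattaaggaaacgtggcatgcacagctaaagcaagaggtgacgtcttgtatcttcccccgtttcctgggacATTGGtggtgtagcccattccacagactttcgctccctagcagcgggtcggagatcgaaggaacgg
EZH2: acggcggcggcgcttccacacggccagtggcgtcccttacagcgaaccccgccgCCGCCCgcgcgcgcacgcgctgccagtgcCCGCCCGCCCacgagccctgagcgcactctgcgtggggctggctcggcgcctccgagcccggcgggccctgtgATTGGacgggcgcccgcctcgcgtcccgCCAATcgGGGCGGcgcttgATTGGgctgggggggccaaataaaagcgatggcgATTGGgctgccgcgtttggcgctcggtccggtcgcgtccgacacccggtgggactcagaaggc
SUZ12: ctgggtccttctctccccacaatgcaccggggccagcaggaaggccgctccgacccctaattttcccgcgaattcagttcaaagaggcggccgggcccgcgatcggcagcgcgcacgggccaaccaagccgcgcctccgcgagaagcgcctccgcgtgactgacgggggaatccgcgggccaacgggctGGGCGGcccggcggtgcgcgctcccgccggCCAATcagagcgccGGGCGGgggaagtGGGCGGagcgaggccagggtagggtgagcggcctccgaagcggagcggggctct
GC boxes were found 1 time in the EZH1 window, 0 times in EED, 4 times in EZH2 and 3 times in SUZ12, and CCAAT boxes 0, 1, 4 and 1 times in the same order. Of the 48 genes 44 had a window, and 70.5% of these held a GC box. Of 27305 RefSeq windows of the same length 44.6% held one. These windows, called all windows below, were not limited to the genes tested here. A GC box was present in 20 of 25 windows of genes called lower and in 2 of 8 windows of genes called higher. Over all 44 windows, which include genes that were not called, 31 held one. The shares among all genes called lower or higher were not computed, and whether GC boxes go with the changes was not tested. CCAAT was present in 31.8% of the windows and in 35.7% of all windows. TATAAA was present in 0 of 44 windows and in 12% of all windows. Median GC content was 66.8% over the 44 windows and 58.3% over all windows.

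Among the H3K4 writers the MLL family split by member. KMT2E, an MLL family protein with a divergent SET domain and no established methyltransferase activity, had 10.9, 11.2 and 10.4 CPM in the shHNRNPC libraries, against 18.5, 19.99 and 19.7 CPM in the shcontrol libraries, a 1.79-fold fall (adjusted p = 3.06e-11). KMT2C, which monomethylates H3K4 at enhancers, had 18.3, 19.5 and 19.7 CPM in the shHNRNPC libraries, against 27.03, 27.8 and 26.4 CPM in the shcontrol libraries, a 1.41-fold fall (adjusted p = 8.65e-08). KMT2A, the MLL1 protein rearranged in leukaemias, fell by 0.26 on the log2 scale (SE 0.045, adjusted p = 2.26e-06), and SETD7, which also methylates non-histone proteins, fell 1.34-fold (adjusted p = 3.78e-12). Composition-adjusted, the log2 fold changes shrank to -0.29 for KMT2C, -0.12 for KMT2A and -0.23 for SETD7, and all 3 stayed called. The paralogs KMT2B and KMT2D and the COMPASS catalytic subunits SETD1A and SETD1B did not pass the test, with log2 fold changes of 0.01 (SE 0.038), -0.005 (SE 0.031), -0.01 (SE 0.040) and -0.03 (SE 0.050). None of the 8 H3K4 writers was called higher and 4 were lower (50%), where 29.8% and 31.3% of all tested genes were.

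Of the 5 H3K9 writers tested, SETDB2, SETDB1 and SUV39H2 fell and SUV39H1 rose. SETDB2 had 6.08, 4.56 and 5.71 CPM in the shHNRNPC libraries, against 10.3, 9.55 and 10.5 CPM in the shcontrol libraries (log2 fold change -0.90, SE 0.125, adjusted p = 3.17e-08). SETDB1, the H3K9 trimethylase recruited by TRIM28 to silence retroelements, had 32.7, 29.1 and 29.6 CPM in the shHNRNPC libraries, against 48.4, 45.5 and 48.9 CPM in the shcontrol libraries (log2 fold change -0.65, SE 0.059, adjusted p = 3.44e-13). Composition-adjusted, SETDB2 was at -0.56 and SETDB1 at -0.70 on the log2 scale. Both were lower in every shHNRNPC library than in any shcontrol library. The heterochromatin methyltransferase SUV39H2 fell 1.33-fold (adjusted p = 0.00143) and its paralog SUV39H1 rose 1.11-fold (adjusted p = 0.00117). Composition-adjusted, neither passed (SUV39H2 at -0.23 with adjusted p = 0.0790, SUV39H1 at -0.0020 with adjusted p = 0.971). EHMT1, the H3K9 methyltransferase GLP, did not pass (log2 fold change -0.03, SE 0.032).

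Of the 6 writers grouped with H3K36, 5 fell (83.3%), where 31.3% of all tested genes were lower. SETD2, which trimethylates H3K36 in the bodies of transcribed genes, had 22.1, 24.6 and 23.4 CPM in the shHNRNPC libraries, against 37.8, 36.7 and 36.6 CPM in the shcontrol libraries, a 1.58-fold fall (adjusted p = 3.08e-12). ASH1L had 22.5, 22.1 and 20.1 CPM in the shHNRNPC libraries, against 33.5, 37.8 and 35.2 CPM in the shcontrol libraries, a 1.64-fold fall (adjusted p = 1.68e-12). NSD3 had 22.1, 22.5 and 22.3 CPM in the shHNRNPC libraries, against 37.4, 34.6 and 30.2 CPM in the shcontrol libraries, a 1.52-fold fall (adjusted p = 5.38e-10). All 3 genes were separated between the groups, with shcontrol libraries of NSD3 spread more widely than its shHNRNPC libraries. Composition-adjusted, the log2 fold change was -0.41 for SETD2, against -0.66 unadjusted, and -0.28 for NSD3, against -0.61. NSD1, the H3K36 dimethylase lost in Sotos syndrome, fell 1.35-fold (adjusted p = 7.44e-14), and NSD2, the dimethylase overexpressed in t(4;14) myeloma, fell 1.08-fold (adjusted p = 6.85e-05). NSD2 turned to 0.04 in the composition-adjusted fit (adjusted p = 0.192). SETD5, whose catalytic activity is debated, rose 1.08-fold (adjusted p = 0.0183). Its call was lost on leaving out SI_3_3 or NC_3_3 (log2 fold change 0.09 and 0.10) and with scaling by library size alone (0.07).

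The H3K79 methyltransferase DOT1L rose 1.11-fold (adjusted p = 1.15e-04), and its composition-adjusted log2 fold change was 0.12 (adjusted p = 4.38e-04). The H4K20 writers gave 1 fall, 1 rise and 1 gene that did not pass. KMT5B, which with KMT5C makes di- and trimethylated H4K20, fell 1.34-fold (adjusted p = 6.76e-06), whereas KMT5C rose 1.22-fold with overlapping groups (adjusted p = 0.0129). The call of KMT5C was lost on leaving out SI_3_3, NC_3_2 or NC_3_3, and those of both genes in the composition-adjusted fit (adjusted p = 0.522 for KMT5C and 0.217 for KMT5B). The H4K20 monomethylase KMT5A did not pass (log2 fold change 0.04, SE 0.054).

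The erasers fell in 7 of 15 cases (46.7%, against 31.3% of all tested genes), and the largest fall was that of KDM4A. KDM4A, which removes methyl groups from H3K9 and H3K36, lies on chromosome 1, 43650158 to 43705515, in the deposited table. It had 23.2, 23.3 and 20.8 CPM in the shHNRNPC libraries, against 41.0, 35.8 and 37.8 CPM in the shcontrol libraries (log2 fold change -0.77, SE 0.068, adjusted p = 1.23e-13). Composition-adjusted, it stood at -0.81 on the log2 scale. Its paralogs KDM4B and KDM4C did not pass (log2 fold changes 0.06 with SE 0.045 and 0.02 with SE 0.140). JMJD1C, a Jumonji protein of the KDM3 family, had 10.5, 10.5 and 11.03 CPM in the shHNRNPC libraries, against 16.98, 15.2 and 16.7 CPM in the shcontrol libraries, a 1.53-fold fall (adjusted p = 1.87e-07). Composition-adjusted, JMJD1C stood at -0.23 on the log2 scale (adjusted p = 0.0327), against -0.62 unadjusted. KDM3B, an H3K9 demethylase of the same family, fell 1.32-fold (adjusted p = 2.42e-14).

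All 4 H3K4 erasers were called lower, where 31.3% of all tested genes were, and each fell by less than 1.4-fold. KDM5A and KDM5B, Jumonji enzymes that demethylate trimethylated H3K4, fell 1.31-fold and 1.23-fold, and the amine oxidases KDM1B and KDM1A fell 1.27-fold and 1.12-fold (adjusted p between 8.98e-09 and 1.72e-05). In the composition-adjusted fit KDM1A was the H3K4 eraser that kept its call (log2 fold change -0.28). KDM2A and KDM2B, grouped here with H3K36, rose 1.08-fold and 1.14-fold (adjusted p = 0.00837 and 9.85e-04), with overlapping groups for KDM2A. KDM4A, which also acts on H3K36, was grouped with H3K9 and fell. The KDM2A call was lost on leaving out SI_3_2 or NC_3_3, and with scaling by library size alone (log2 fold change 0.07). KDM6B, the eraser grouped here with H3K27, did not pass (log2 fold change 0.12, SE 0.067). Nor did PHF2, PHF8 and KDM7A, which were grouped with H3K9 (log2 fold changes -0.08, 0.04 and -0.41, with SE 0.046, 0.050 and 0.205). KDM7A had the lowest level of the 48 genes, with 2.25, 3.31 and 2.04 CPM in the shHNRNPC libraries, against 3.29, 3.16 and 3.60 CPM in the shcontrol libraries. It was called lower on leaving out SI_3_2, the shHNRNPC library that overlapped with shcontrol (log2 fold change -0.65, adjusted p = 0.0159), and KDM6B was called higher on leaving out the same library (log2 fold change 0.19, adjusted p = 0.0250).

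The counts of closely related genes were also compared within each library, where the ratio does not depend on how libraries are scaled. In 13 of 15 pairs the ratios of the groups did not overlap, and an exact two-sided permutation test over the 6 libraries gave p = 0.10, the smallest p that 3 against 3 libraries allow (0.115 adjusted over the 15 pairs). Single genes also separated often, 30.9% of all tested genes upwards and 33.0% downwards. The share among other gene pairs was not computed, so the count describes these pairs and says nothing particular about them. The CDYL to CDYL2 ratio was 7.01, 6.98 and 6.39 in the shHNRNPC libraries, against 2.28, 2.36 and 2.18 in the shcontrol libraries. The EZH1 to EZH2 ratio was 0.530, 0.601 and 0.501 in the shHNRNPC libraries, against 0.287, 0.333 and 0.318 in the shcontrol libraries. These were the largest shifts towards the first gene, at 1.58 and 0.80 on the log2 scale. The largest shifts towards the second gene were -0.83 for KDM4A over KDM4B and -0.72 for KMT5B over KMT5C. SETD1A over SETD1B and KDM5A over KDM5B overlapped between groups, with differences of 0.02 and -0.09 (exact permutation p = 0.60 for both).

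**Figure D3:**
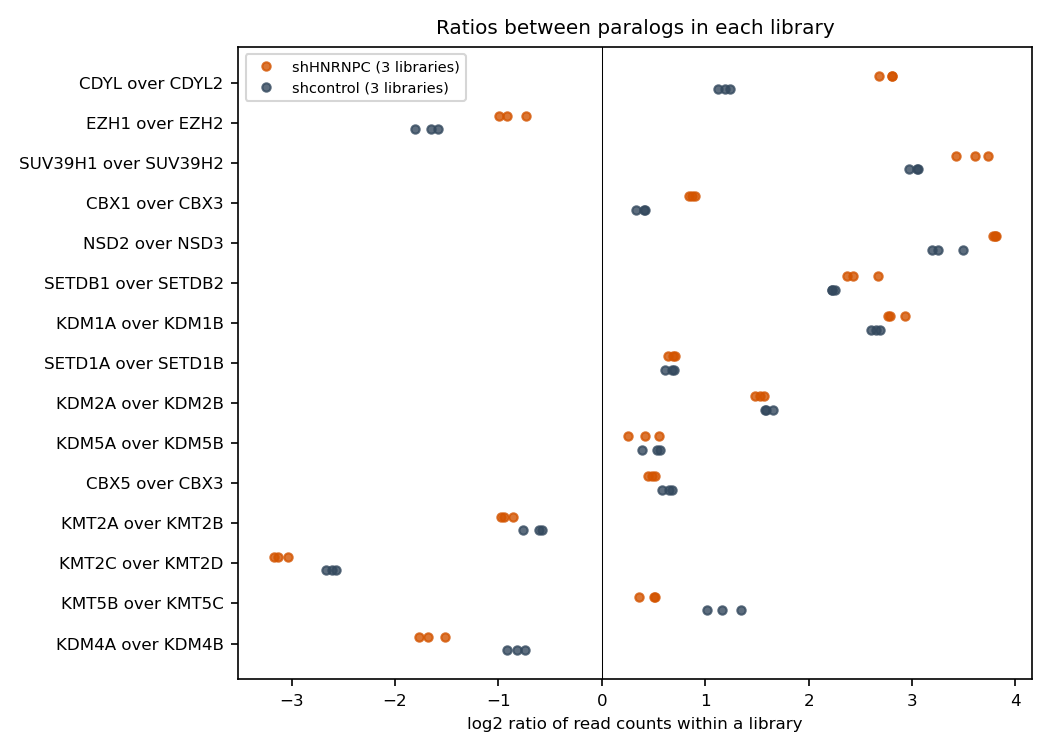
Log2 ratio of read counts of closely related genes in each of the 3 shHNRNPC and 3 shcontrol libraries (points; shHNRNPC above shcontrol in each row). The pairs run from CDYL over CDYL2 at the top, shifted by 1.58, to KDM4A over KDM4B at the bottom, shifted by -0.83.

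The change of a gene went with the base composition of its transcript. Transcript GC content, taken from the longest coding transcript in GENCODE 29, had a median of 47.0% over the 48 genes and 48.4% over all tested genes. Across the 48 genes the Spearman correlation of GC content with the log2 fold change was 0.70, and across 11813 tested genes with a transcript it was 0.43. The genes share libraries and are not independent replicates, so no p is given. Of the 27 histone methylation genes under the median GC content of all tested genes, 23 were lower and 2 higher, while 46.5% of all genes on that side were lower and 17.6% higher. Of the 21 genes above it, 4 were lower and 7 higher, while 16.2% of all genes on that side were lower and 41.9% higher. The split at the median was chosen after the values were seen. The 4 lower genes above the median were KDM4A, SETDB1, KDM3B and KDM1A, and all 4 kept their calls in the composition-adjusted fit. The median log2 fold change below the median GC content was -0.42, against -0.17 for all tested genes on that side, and -0.23 and -0.01 when composition-adjusted. Above the median GC content it was 0.04, against 0.10 for all tested genes on that side, and 0.002 and -0.04 when composition-adjusted. Transcripts of the 48 genes were long, with a median of 6295 bases against 3497 bases for all tested genes. The correlation with transcript length was -0.30 across the 48 genes and -0.32 across all genes, and that with the density of runs of at least 5 uridines was -0.42 and -0.31.

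**Figure D4:**
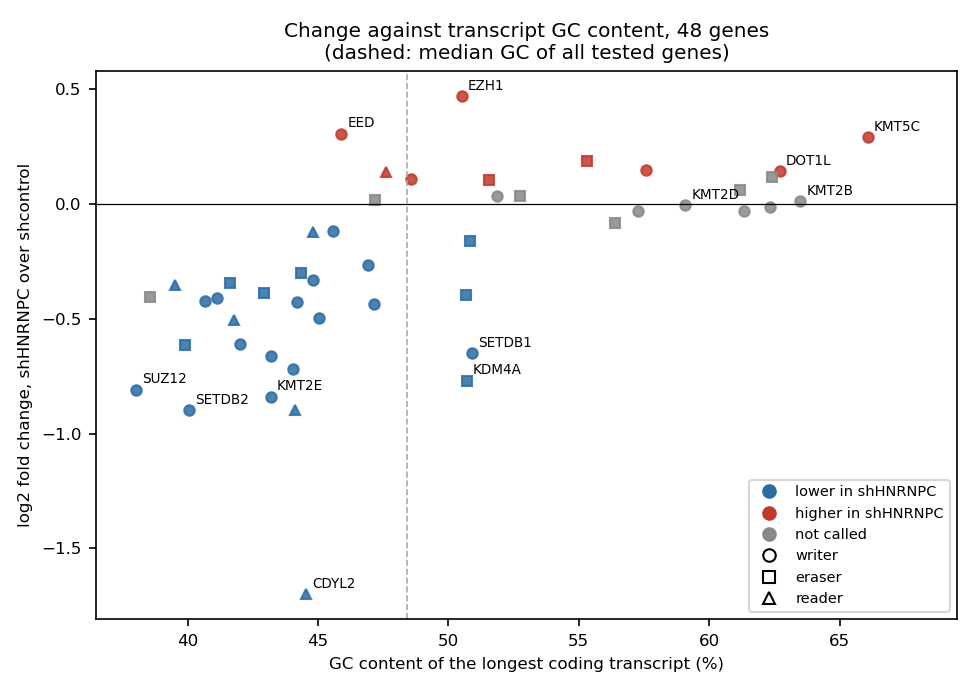
Log2 fold change of shHNRNPC over shcontrol against GC content of the longest coding transcript for the 48 genes (marker shape for role, colour for call), with a dashed line at the 48.4% median of all tested genes. Genes called lower gather left of the line, and KDM4A and SETDB1 are among the 4 called lower to the right of it.

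Levels can be compared between genes only per length, here as CPM per kilobase of the longest coding transcript. KDM1A and CBX1 were highest in shHNRNPC cells, at 60.4 ± 0.405 and 60.4 ± 1.57 CPM per kilobase (SD, n = 3 each), and differed there by less than the spread between libraries. In shcontrol cells KDM1A was at 67.5 ± 1.2 and CBX1 at 54.8 ± 0.516 CPM per kilobase, outside each other's spread. CBX3 came next with 37.4 ± 0.513 CPM per kilobase in shHNRNPC and 47.8 ± 1.41 in shcontrol cells, and NSD2 was the writer with the highest level, at 36.2 ± 0.314 CPM per kilobase in shHNRNPC and 39.3 ± 0.790 in shcontrol cells. EZH2 stood at 18.9 ± 0.681 CPM per kilobase in shHNRNPC and 23.7 ± 0.960 in shcontrol cells, above EZH1 at 5.86 ± 0.345 CPM per kilobase in shHNRNPC and 4.23 ± 0.301 in shcontrol cells. The lowest levels were those of KDM7A, at 0.273 ± 0.0734 CPM per kilobase in shHNRNPC and 0.362 ± 0.0244 in shcontrol cells. CDYL2 was at 0.874 ± 0.0861 CPM per kilobase in shHNRNPC cells, within the spread of SETDB2 at 0.888 ± 0.129, and in shcontrol cells it was at 2.84 ± 0.0385, above SETDB2 at 1.65 ± 0.0821 CPM per kilobase.

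Partner genes from lists of the same complexes changed in both directions. Of all tested genes 29.8% were higher and 31.3% lower, and 25.3% and 30.7% in the composition-adjusted fit. Of 16 COMPASS and MLL complex partners 7 were higher and 3 lower (43.8% and 18.8%), and 5 and 4 in the composition-adjusted fit (31.2% and 25.0%). WDR82, the subunit that recruits SETD1 complexes to initiating polymerase, averaged 189 ± 4.69 CPM in shHNRNPC and 154 ± 5.22 CPM in shcontrol cells, and BOD1L1 and PSIP1 fell 1.46-fold and 1.33-fold. Of 8 tested PRC2 partners 2 were higher and 3 lower, shares near those of all tested genes, and 3 and 0 in the composition-adjusted fit. The histone-binding subunit RBBP7 rose 1.16-fold, and AEBP2 and LCOR fell 1.43-fold and 1.30-fold, with both calls lost in the composition-adjusted fit (adjusted p = 0.0764 and 0.393). Of 17 tested PRC1 subunits 3 were higher and 3 lower (17.6% each), below the shares of all tested genes. In the composition-adjusted fit 5 were higher and 4 lower (29.4% and 23.5%). The chromodomain subunit CBX2 rose 1.27-fold, CBX7 fell 1.37-fold and PHC3 fell 1.397-fold, the last losing its call in that fit (adjusted p = 0.788).

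Of 17 tested HP1 and HUSH partners 10 were lower and 4 higher (58.8% and 23.5%). In the composition-adjusted fit 5 were lower and 2 higher, and the 29.4% that were lower lay near the 30.7% of all tested genes. SMCHD1, a noncanonical SMC protein of X inactivation, averaged 55.0 ± 3.46 CPM in shHNRNPC and 82.1 ± 4.81 CPM in shcontrol cells. FAM208B fell 1.57-fold and UHRF1, which links H3K9 methylation to DNA methylation, fell 1.19-fold. Of 12 tested KDM1A and CoREST partners 5 were higher and 3 lower (41.7% and 25.0%), with rises of ZMYM3 (1.41-fold), the deacetylase HDAC1 (1.196-fold) and HMG20B (1.245-fold). Of 31 further readers of methylated lysine 14 were lower and 9 higher (45.2% and 29.03%), and 7 were lower in the composition-adjusted fit (22.6%). SPIN1, which binds trimethylated H3K4, PHF20L1 and BPTF, the PHD finger subunit of the NURF remodeller, fell 1.45-fold, 1.56-fold and 1.53-fold. Named genes of these lists had an adjusted p between 7.01e-15 and 6.91e-05.

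Counting was done without a stated use of strand. In GENCODE 29, 19 of the 48 genes share exon bases with a gene on the other strand. Among them are KMT2E with SRPK2 and KMT2E-AS1, SETDB1 with CERS2, ASH1L with ASH1L-AS1, JMJD1C with JMJD1C-AS1, KDM4A with KDM4A-AS1, NSD3 with DDHD2 and CBX3 with HNRNPA2B1. On the same strand 7 of the 48 genes share exon bases with another gene, among them KDM4A with AL451062.3 and KMT2A with AP001267.5. Whether reads from such partners entered these counts cannot be told.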

How the data were processed

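RNA was extracted with Trizol and libraries were made with an NEBNext Ultra kit, per the labels' protocols. STAR, HTSeq 0.6.0 and DESeq2 appear in the submitters' processing notes, and the genome build, annotation and use of strand were not given in the sources used here. Whole-number read counts per gene, as deposited by the authors and not normalised, were the starting values. The log2 fold changes and p-values of the authors' deposited table were used as an alternative. Columns named SI and NC were assigned to shHNRNPC and shcontrol, and 24 other columns of per-library values were not used.

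Counts were filtered with filterByExpr, scaled by TMM and tested with glmQLFit and glmQLFTest in edgeR 4.0.16 (R 4.3.3), with Benjamini-Hochberg adjustment over 11831 genes and a threshold of 0.05. Standard errors were derived from fold change and F statistic. The composition-adjusted fit used offsets for transcript GC content and length from natural splines with 5 degrees of freedom per property. GENCODE 29 transcripts were found for 99.8% of tested genes. The splines were fitted to each library's deviation from the gene mean over all libraries of both groups. A bias of the libraries and a knockdown effect that goes with GC content or length therefore cannot be told apart in this fit. Of the genes with a position, 96.1% overlap the same-named gene of GENCODE 29 (GRCh38), and positions are printed as deposited. Chi-square per gene between libraries was 1.56 to 2.50 within groups, where 1 is counting noise, and 29.5 to 33.6 between groups, so no pair of libraries was counted as the same. Other alternatives were RLE, upper quartile and library size scaling, other filters, DESeq2 1.42.0, limma-voom (limma 3.58.1), a test against 1.2-fold, a replicate block on column suffixes, and leaving out each library.

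The genes and lists were chosen with earlier results of these data known. Values in every library are given for the readers, the PRC2 core and each gene called with a change of at least 1.4-fold, fold changes or standard errors for most others, and from each partner list up to 3 genes with the smallest adjusted p. KDM7A was added for its low level after its values were seen.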

Additional observations from a re-analysis of the deposited data

How the results depend on the processing

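The log2 fold change of HNRNPC stayed between -3.46 and -3.82, and the counts of all 48 genes, writers, erasers and readers called lower stayed within 1.5 times under RLE, upper quartile and library size scaling, both other filters, DESeq2, limma-voom, the authors' deposited table, the composition-adjusted fit and each left-out library. Tested against a 1.2-fold change, 1 of the 48 genes was higher, 1 writer, 0 erasers and 0 readers were higher, and 4 erasers were lower. With library size alone 1 eraser was higher, and with single libraries left out 1 to 2 were. In the composition-adjusted fit 0 readers were higher, and the median log2 fold change was -0.11 over all 48 genes, -0.11 over the writers and -0.16 over the readers. This fit turned SUV39H1 to -0.0020 and NSD2 to 0.038, took the calls of 8 further genes and added those of EHMT1 and PHF2. DESeq2 and the authors' deposited table did not call SETD5, KMT5C and CDYL, and scaling by library size alone called PHF2 lower (-0.12).

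Counts in the partner lists moved by over 1.5 times in these cases. In the composition-adjusted fit 0 PRC2 partners were lower, 5 PRC1 subunits were higher, 2 HP1 and HUSH partners were higher and 5 lower, and 7 further readers were lower. With library size alone 3 COMPASS and MLL partners, 2 HP1 and HUSH partners and 1 PRC2 partner were higher. With DESeq2 and in the authors' deposited table these were 4, 2 and 1, and 2 further methyltransferases were lower. That last count was also 2 under RLE and upper quartile scaling, under both other filters and without any single shHNRNPC library. Against a 1.2-fold change, the list counts that moved were between 0 and 6. Leaving out SI_3_3 or NC_3_3 left 2 HP1 and HUSH partners higher, and leaving out SI_3, SI_3_3 or NC_3_3 left 1 PRC2 partner higher. The causes of these shifts were not tested. The table's columns do not carry the replicate numbers of the sample titles, but their names share suffixes across the groups. A replicate block on these suffixes, chosen after seeing the data, left 9 of the 48 genes higher and 27 lower, changed the call of 0 of them, and left 2 further methyltransferases lower. Deviations from the group means correlated between libraries of the same suffix at -0.039, 0.0080 and -0.045, so no shared deviation was seen. With so few libraries this cannot show whether libraries of the same suffix were handled together. With 3 libraries per group the ratio test cannot pass 0.05, and genes at low counts such as KDM7A and KDM4C have the widest standard errors.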

Other observations

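Genes of the same enzyme classes outside the 48 also changed in both directions. Of 13 tested further lysine methyltransferases 4 were higher and 4 lower (30.8% each), against 29.8% and 31.3% of all tested genes. In the composition-adjusted fit 3 were higher and 3 lower (23.1% each), against 25.3% and 30.7%. PRDM4, a PR domain zinc finger protein, averaged 50.8 ± 1.89 CPM in shHNRNPC and 38.9 ± 1.90 CPM in shcontrol cells (SD, n = 3 each), a 1.31-fold rise (edgeR adjusted p = 3.64e-08). SMYD4 rose 1.24-fold and SMYD3 fell 1.32-fold.

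Of 10 further demethylases 2 were higher and 3 lower (20% and 30%), and 2 and 4 in the composition-adjusted fit (20% and 40%). RSBN1, of a family linked to H4K20 demethylation, averaged 6.11 ± 0.769 CPM in shHNRNPC and 12.4 ± 0.988 CPM in shcontrol cells, a 2.03-fold fall (edgeR adjusted p = 2.24e-10). KDM3A, the paralog of KDM3B and JMJD1C, rose 1.36-fold (29.7 ± 0.946 CPM in shHNRNPC and 21.9 ± 1.48 CPM in shcontrol cells, edgeR adjusted p = 6.05e-07), where both paralogs fell. RIOX2 fell 1.19-fold and was not called in the composition-adjusted fit (adjusted p = 0.909).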
